A study of Mus musculus with 18 samples.

Results

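RNA sequencing of the nucleus accumbens was used to compare mice labelled Rgs9-2 knockout with mice labelled Rgs9-2 wild type after a spared nerve injury and chronic desipramine. The comparison holds genes that the authors' deposited table lists as tested (status OK) and that reached at least 1 FPKM, fragments per kilobase of transcript scaled to sequencing depth, in both groups. This gave 14093 genes of 37980 listed, of which 17340 were tested. Another 20640 genes were not tested, 2820 were tested but lay under 1 FPKM in both groups, 239 lay under 1 only with the knockout label and 188 only with the wild-type label. Among those just inside the level threshold were Serpind1 (1.28 FPKM with the knockout label and 1.0 with the wild-type label) and Gm15328. Just outside it were A930024E05Rik, Rtdr1 and 2610027K06Rik, whose lower value fell just short of 1 FPKM.

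Both groups had a C57BL/6 background, the nerve injury and desipramine at 15 mg/kg into the peritoneum 2 times a day, and each held 3 samples that the series' design text calls biological replicates. The spared nerve injury cuts branches of the sciatic nerve and leaves lasting neuropathic pain, and desipramine is a tricyclic antidepressant that blocks the reuptake of noradrenaline. The other groups used here were injured mice given saline and naive mice, again 3 samples per label, which share no sample with the desipramine groups. The sources used here give neither age, sex nor the form of the deleted allele. The design text asks what part RGS9-2 plays in gene expression of this region during neuropathic pain and its treatment with an antidepressant. With 1 FPKM value per gene and group in the table, how far the 3 samples of a group lay apart cannot be seen, and depth is unknown. All FPKM values are those of the authors' deposited tables. The log2 ratios below are those of the FPKM with the knockout label over that with the wild-type label, and ± precedes a standard error worked back from the deposited test statistic. A gene was called where the deposited Cuffdiff q was at or below 0.05. The libraries of the group labelled knockout were sequenced in lane 3 and those of the group labelled wild type in lane 1, so lane and label cannot be told apart.

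RGS proteins shorten signalling from G protein coupled receptors by speeding the hydrolysis of GTP on G protein alpha subunits. RGS9-2 is the splice form of Rgs9 found in striatal neurons, where it works together with the subunit Gβ5 and limits signalling from dopamine and opioid receptors. The nucleus accumbens consists mainly of GABAergic medium spiny neurons that carry D1 or D2 dopamine receptors and make dynorphin, substance P or enkephalin as peptides, with scattered interneurons among them. It borders the cortex, the septum and the walls of the lateral ventricle.

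Rgs9 itself, the targeted gene, was higher in the group labelled knockout, against the label. It stood at 168 FPKM with the knockout label and 114 FPKM with the wild-type label (log2 ratio 0.55 ± 0.19, q = 0.00818 in the authors' deposited table). The gene (ENSMUSG00000020599) lies on chromosome 11 from 109086668 to 109159443 in the files' mm9 build. One value per gene takes in all exons, and whether exons removed in a knockout were read cannot be seen from it. The groups are therefore named by their labels throughout, in short as the KO label and the WT label, and each direction rests on those labels.

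Under desipramine, most of the 14093 genes had close to the same level with both labels, and 110 differed by the deposited test. The median log2 ratio was -0.0043, and the middle 50% of genes lay between -0.097 and 0.076. Of these genes, 33 (0.234%) were called higher with the knockout label and 77 (0.546%) lower, together 0.781%. The 33 had a median log2 ratio of 0.77 and the 77 a median of -0.68. The called ratios nearest to 0 were 0.39 for Ccnd2 and -0.36 for Lrrc16b (q = 0.0366 in the authors' deposited table). The lowest q the table can give here, 0.00818 in the authors' deposited table, was reached by 82 of the 110, and a called gene printed below with no q has that value. With p taken from the test statistic as normal and adjusted in the same way, 24 genes were higher, 8 of them among the 33, and 45 lower, 22 of them among the 77, so most single calls rest on the deposited p. At an unadjusted deposited p under 0.05, 282 genes (2.0%) were higher and 432 (3.07%) lower in the authors' deposited table. A ratio of at least 2-fold was reached by 33 genes on the higher side, of which 9 were called, and by 53 on the lower side, of which 22 were called. Of the 55 such genes that were not called, 42 were small RNAs or pseudogenes. Calls were spread over levels, with 35 of 3680 genes at 1 to 5 FPKM, 49 of 5446 at 5 to 20, 22 of 4091 at 20 to 100, and 4 of 876 at 100 or more. The 4 called genes with a geometric mean of both groups of at least 100 FPKM, named here after their values were seen, were Rgs9, the synuclein gene Sncb (151 FPKM with the knockout label and 214 with the wild-type label), the secreted olfactomedin gene Olfm1 (144 FPKM under the KO label and 218 under the WT label) and the pseudogene Gm11942 (50.3 FPKM under the KO label and 205 under the WT label). Chromosome 11, which carries Rgs9, held 11 called genes of 1157. Over all 17340 tested genes 149 (0.859%) were called, 54 of them higher (0.311%) and 95 lower (0.548%). The 39 outside the level threshold included Bdnf, a neurotrophin gene, at 0.905 FPKM with the knockout label and 1.72 with the wild-type label (log2 ratio -0.93, q = 0.00818 in the authors' deposited table). Bdnf was picked out after its value was seen.

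**Figure D1:**
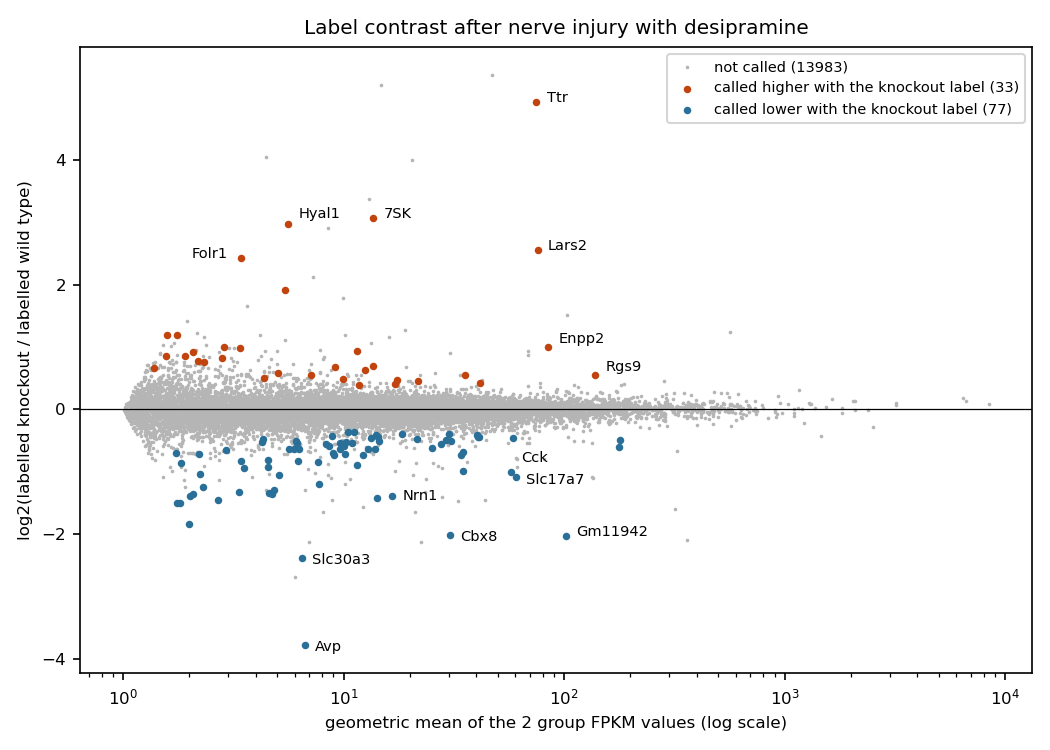
Log2 ratio of FPKM (labelled knockout over labelled wild type, vertical axis) against the geometric mean of both FPKM values (horizontal axis, log scale) for 14093 genes after injury with desipramine. The 33 genes called higher are orange and the 77 called lower are blue, with Ttr at 4.92 and Avp at -3.77 at the ends, and uncalled genes in grey centre on 0.

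Choroid plexus genes held the highest ratio of all called genes and the highest median of any list. The choroid plexus is the epithelium that secretes cerebrospinal fluid into the ventricles. Of 25 listed genes 12 passed the level threshold. Of these 12, 5 were called higher and 0 lower, all 12 had a positive log2 ratio, and the list median was 0.99, against -0.0043 over all genes. Where both groups had to reach 5 FPKM, the list median was 0.47. Ttr, which encodes transthyretin, a carrier of thyroid hormone and retinol, stood at 411 FPKM with the knockout label and 13.6 FPKM with the wild-type label (log2 ratio 4.92 ± 0.67). Folr1, a folate receptor gene, followed at 7.97 FPKM with the knockout label and 1.48 with the wild-type label (2.43 ± 0.65). Sostdc1, a secreted antagonist of BMP signalling, had 2.65 FPKM under the KO label and 1.16 under the WT label (1.20 ± 0.33). Kl, which encodes klotho, had 4.797 FPKM with the knockout label and 2.41 with the wild-type label (0.99 ± 0.22). Car12, a carbonic anhydrase gene, had 20.7 FPKM with the knockout label and 14.9 with the wild-type label (0.47 ± 0.19). Of the 12 genes Car12 was the 1 with a positive log2 ratio in naive mice as well (0.73, not called there). All 5 had the lowest q the deposited table can give, and their levels ranged widely. Of the members not called, Clic6, a chloride channel gene, had 9.15 FPKM under the KO label and 6.92 under the WT label (log2 ratio 0.40 ± 0.24), and Lbp had 6.31 FPKM under the KO label and 2.76 under the WT label (1.19 ± 0.75). Another 8 listed genes were called higher among those below the level threshold, the water channel gene Aqp1 and the tight junction gene Cldn2 among them, both named after their values were seen. The list summed to 480.01 FPKM with the knockout label and 54.6 FPKM with the wild-type label. Ttr alone gave 411 FPKM of the sum with the knockout label and 13.6 of that with the wild-type label. In either group 0 of the 25 genes were listed at 0. In bulk tissue fewer cells of a type and less RNA per cell cannot be told apart.

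Ependymal genes, of the ciliated cells that line the ventricles, lay on the same side with a lower median. All 16 of the 26 listed genes that passed the threshold had a positive log2 ratio, the median was 0.45, and 1 was called. The called gene was Ccdc153, a coiled-coil gene of ciliated cells, at 11.5 FPKM with the knockout label and 7.23 with the wild-type label (0.67 ± 0.24). Foxj1, the transcription factor of motile cilia, had 8.33 FPKM under the KO label and 5.94 under the WT label (0.49 ± 0.22) and did not pass (q = 0.0507 in the authors' deposited table). It was picked out after its value was seen. Tppp3, the most abundant member, had 72.5 FPKM with the knockout label and 65.6 with the wild-type label (0.14 ± 0.22). At an unadjusted deposited p under 0.05 there were 7 ependymal genes higher and 0 lower in the authors' deposited table. Ccdc135, a gene of sperm flagella and motile cilia, was also called higher, at 2.11 FPKM with the knockout label and 1.16 with the wild-type label (0.86 ± 0.34). Enpp2, which encodes the lysophospholipase autotaxin and is expressed in both choroid plexus and oligodendrocytes, had 119 FPKM with the knockout label and 59.8 with the wild-type label (0.997 ± 0.20). It was the 1 called gene of 21 on the oligodendrocyte list, whose median was 0.19. Of the 21, 20 had a positive log2 ratio, against 13 in naive mice and 1 after saline. At an unadjusted deposited p under 0.05, 6 of the list were higher and 0 lower in the authors' deposited table. Mbp, a myelin gene of that list, was not called, at 1739 FPKM under the KO label and 1547 under the WT label (log2 ratio 0.17 ± 0.47). How far neighbouring ventricular tissue entered the dissections was not tested.

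Some genes of dividing cells rose with the knockout label, in a list put together after the values were seen. Of 22 members 4 were called higher and 0 lower, 20 had a positive log2 ratio, and the median was 0.33. Top2a, the topoisomerase that untangles replicated DNA, had 4.07 FPKM with the knockout label and 2.02 with the wild-type label (1.01 ± 0.37, q = 0.0146 in the authors' deposited table). Nuf2, a kinetochore subunit, had 2.85 FPKM with the knockout label and 1.67 with the wild-type label (0.77 ± 0.35, q = 0.0203 in the authors' deposited table). Hmgb2, a chromatin protein gene of cycling cells, had 6.17 FPKM under the KO label and 4.10 under the WT label (0.59 ± 0.22, q = 0.0146 in the authors' deposited table), and Ccnd2, a D-type cyclin gene, had 13.4 FPKM under the KO label and 10.2 under the WT label (0.39 ± 0.18, q = 0.0466 in the authors' deposited table). Pcna, the replication clamp and the most abundant member, had 42.1 FPKM with the knockout label and 39.1 with the wild-type label (0.11 ± 0.16) and was not called. In a list of neuroblast genes chosen in the same way, Cd24a, a surface glycoprotein gene of young neurons, was called at 17.3 FPKM under the KO label and 10.7 under the WT label (0.69 ± 0.19), 1 of 16 with a median of 0.21. Doublecortin, Dcx, picked out after its value was seen, had 7.53 FPKM with the knockout label and 7.42 with the wild-type label. Since both lists were made with these values in view, their counts describe the genes and carry no test.

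Another 3 genes called higher, placed together after their values were seen, were high in the same 2 groups of the 6. Lars2, a mitochondrial leucyl-tRNA synthetase gene, had 184 FPKM with the knockout label and 31.3 with the wild-type label (2.56 ± 0.36). Hyal1, a lysosomal hyaluronidase gene, had 15.6 FPKM under the KO label and 2.00 under the WT label (2.96 ± 0.47). The small nuclear RNA gene 7SK (ENSMUSG00000065037) had 39.4 FPKM with the knockout label and 4.71 with the wild-type label (3.06 ± 0.19). Other gene entries with the name 7SK were listed too, and none of them was called. Lars2 had 107 FPKM under the KO label and 28.6 under the WT label in naive mice, and 19.5 FPKM under the KO label and 23.3 under the WT label after saline. Hyal1 had 33.7 FPKM under the KO label and 1.41 under the WT label in naive mice, and 1.86 FPKM under the KO label and 1.92 under the WT label after saline. 7SK had 138 FPKM under the KO label and 4.50 under the WT label in naive mice, and 2.56 FPKM under the KO label and 2.11 under the WT label after saline. All 3 were thus high with the knockout label in naive and desipramine-treated mice, and low with both labels after saline. Of 17 mitochondrial aminoacyl-tRNA synthetase genes Lars2 was the 1 called, and the median was -0.051. The hyaluronan and perineuronal net list had a median of -0.044 over 11 genes. The part that library preparation had in the level of 7SK, a short RNA, was not tested.

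**Figure D2:**
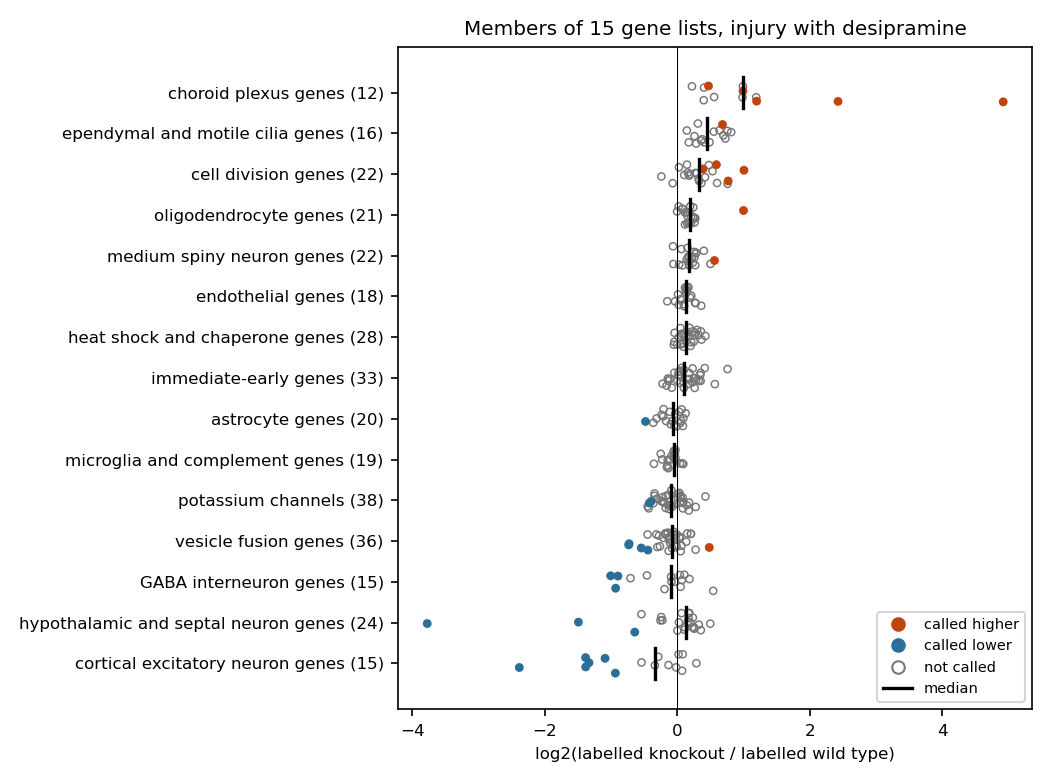
Log2 ratio of FPKM (labelled knockout over labelled wild type) for each gene of 15 lists that passed the level threshold, with the number of genes in parentheses. Filled points are called, orange higher and blue lower, open points are not called and black bars are list medians, which run between 0.99 for choroid plexus genes and -0.34 for cortical excitatory neuron genes.

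Cortical excitatory neuron genes held the most calls of any list among the 77 genes that were lower with the knockout label. Of 15 members 6 were called lower and 0 higher, and the list median was -0.34. Slc17a7, the vesicular glutamate transporter VGLUT1, had 41.5 FPKM with the knockout label and 88.3 with the wild-type label (-1.09 ± 0.20). Slc30a3, which loads zinc into glutamatergic vesicles, had 2.83 FPKM with the knockout label and 14.8 with the wild-type label (-2.38 ± 0.25). Nrn1, a secreted neurite growth factor gene, had 10.3 FPKM under the KO label and 26.9 under the WT label (-1.38 ± 0.22). The transcription factor gene Bhlhe22 had 1.25 FPKM with the knockout label and 3.25 with the wild-type label (-1.38 ± 0.29), and Neurod2, another, had 2.55 FPKM under the KO label and 4.87 under the WT label (-0.93 ± 0.26). Rtn4rl2, a Nogo receptor homologue, was called as well, at 2.88 FPKM with the knockout label and 7.26 with the wild-type label (-1.33 ± 0.47). Its relative Rtn4r, the Nogo receptor that limits axon growth, had 3.11 FPKM under the KO label and 7.60 under the WT label (-1.29 ± 0.26). The list was not uniform, since Kcnv1 had 10.6 FPKM with the knockout label and 10.01 with the wild-type label, and Rprm had 16.5 FPKM under the KO label and 20.8 under the WT label (-0.34 ± 0.18, q = 0.312 in the authors' deposited table). Fezf2, a factor of deep layer neurons, had 2.43 FPKM under the KO label and 2.39 under the WT label. Fezf2 was picked out after its value was seen. Of the 15 genes, 11 had a negative log2 ratio and 4 a positive one. The list summed to 119.6 FPKM with the knockout label and 209.9 FPKM with the wild-type label, and 0 of its 18 genes in the table were listed at 0. Whether cortex entered the dissections to a different extent was not tested.

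Another 5 genes called lower with the knockout label encode peptide messengers, and were put together after their values were seen. Cck, which encodes cholecystokinin, had 40.5 FPKM with the knockout label and 81.3 with the wild-type label (-1.005 ± 0.22). Vip, the gene of vasoactive intestinal peptide, had 3.28 FPKM under the KO label and 6.25 under the WT label (-0.93 ± 0.27). Adcyap1, the gene of the related peptide PACAP, had 1.08 FPKM with the knockout label and 3.05 with the wild-type label (-1.49 ± 0.32). Avp, the gene of the hypothalamic hormone vasopressin, had the lowest ratio of all called genes, with 1.80 FPKM with the knockout label and 24.7 with the wild-type label (-3.77 ± 0.32). Gnrh1, which encodes gonadotropin-releasing hormone, had 1.63 FPKM under the KO label and 4.45 under the WT label (-1.45 ± 0.34).

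Promoter sequences were looked up for these peptide genes, since they were called in the same direction. The RefSeq promoter table, on GRCm38.p6, gives 250 bases before to 50 after each start, and held 4 of the 5 genes. It was searched on both strands for 2 motifs: TGACG, the core of the cAMP response element, and CAGATG, an E-box bound by basic helix-loop-helix factors. The motifs were chosen with the values known. Capitals mark either motif or its reverse complement. Avp lies on the minus strand at chr2:130582539-130582838, Cck on the minus strand at chr9:121495645-121495944, Vip on the plus strand at chr10:5638968-5639267, and Adcyap1 on the plus strand at chr17:93198918-93199217, the second of its 2 windows.
Avp: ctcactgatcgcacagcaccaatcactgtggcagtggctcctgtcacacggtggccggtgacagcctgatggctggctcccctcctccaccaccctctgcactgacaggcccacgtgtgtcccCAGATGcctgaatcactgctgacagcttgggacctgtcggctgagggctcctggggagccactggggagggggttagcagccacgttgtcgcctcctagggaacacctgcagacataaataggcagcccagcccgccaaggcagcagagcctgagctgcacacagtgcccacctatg
Cck: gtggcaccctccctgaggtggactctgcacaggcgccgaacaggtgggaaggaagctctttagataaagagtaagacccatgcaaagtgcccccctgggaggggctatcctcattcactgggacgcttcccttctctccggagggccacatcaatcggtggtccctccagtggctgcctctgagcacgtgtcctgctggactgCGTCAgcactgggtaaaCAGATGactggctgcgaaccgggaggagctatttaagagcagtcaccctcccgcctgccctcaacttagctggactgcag
Vip: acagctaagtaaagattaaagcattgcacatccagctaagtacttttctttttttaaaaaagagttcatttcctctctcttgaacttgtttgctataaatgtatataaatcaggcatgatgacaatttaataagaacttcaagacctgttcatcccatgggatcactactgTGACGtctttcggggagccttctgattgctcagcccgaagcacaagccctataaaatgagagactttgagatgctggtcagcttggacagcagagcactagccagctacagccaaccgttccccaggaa
Adcyap1: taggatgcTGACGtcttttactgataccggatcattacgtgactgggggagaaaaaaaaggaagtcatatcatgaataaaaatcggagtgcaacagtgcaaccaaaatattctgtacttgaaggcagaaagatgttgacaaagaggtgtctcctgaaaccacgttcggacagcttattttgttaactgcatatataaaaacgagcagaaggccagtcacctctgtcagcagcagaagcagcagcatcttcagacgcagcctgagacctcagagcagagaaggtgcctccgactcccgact
TGACG stood in the windows of 3 of the 4 peptide genes, and Avp had none. Both overlapping windows of Adcyap1 held the same site, so by window it was 4 of 5. For comparison, it stood in 19 of 73 windows of all genes called lower (26.0%), in 7 of 26 of those called higher (26.9%), in 30.02% of the 12439 windows found for 9603 of the 14005 symbols that passed the level threshold, and in 20.8% of the 32851 windows of the table. CAGATG stood in the Avp and Cck windows, in 11 of 73 windows of genes called lower (15.1%), in 1 of 26 of those called higher (3.85%), in 11.7% of those 12439 windows and in 17.2% of the table. Windows were found for 56 of the 77 genes called lower and 21 of the 33 called higher. A match of 5 or 6 letters is a description of the window and shows no binding. Peptide genes that were not called were not counted apart, so whether the share goes with the direction of change was not tested.

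Vip and Cck belong to a list of GABA interneuron genes, on which 3 of 15 were called lower and 0 higher with a median of -0.088. The third was Pvalb, the gene of the calcium buffer parvalbumin in fast-spiking interneurons, at 8.41 FPKM with the knockout label and 15.7 with the wild-type label (-0.90 ± 0.28). The most abundant interneuron peptides were nearly level, with Sst at 453 FPKM with the knockout label and 466 with the wild-type label (-0.039 ± 0.12) and Npy at 146 FPKM under the KO label and 139 under the WT label (0.07 ± 0.12). Calb2 had 44.3 FPKM under the KO label and 41.1 under the WT label (0.11 ± 0.20). Cck is expressed in cortical excitatory neurons too, and the sums of the cortical list given above move in the same direction. Which cells the Cck difference came from was not tested.

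On a list of 24 hypothalamic and septal neuron genes, 3 were called lower and 0 higher, while the list median was 0.14. These were Avp, Adcyap1 and Slc17a6, the vesicular glutamate transporter VGLUT2, at 4.53 FPKM with the knockout label and 7.07 with the wild-type label (-0.64 ± 0.20). Members that were not called included Cartpt, a peptide gene, at 66.9 FPKM with the knockout label and 58.1 with the wild-type label (0.20 ± 0.15), and the imprinted gene Dlk1 at 44.1 FPKM under the KO label and 40.9 under the WT label (0.11 ± 0.24). Oxt, the neighbour of Avp that encodes oxytocin, had 14.9 FPKM with the knockout label and 21.7 with the wild-type label (-0.54 ± 0.24, q = 0.443 in the authors' deposited table). Oxt was picked out after its value was seen. Across groups Avp stood at 0.769 FPKM under the KO label and 0.962 under the WT label in naive mice, at 0.312 FPKM under the KO label and 0.795 under the WT label with saline, and at 1.80 FPKM under the KO label and 24.7 under the WT label with desipramine. The group labelled wild type with desipramine was the highest of the 6.

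Some synaptic release genes and fast potassium channel genes were also lower with the knockout label. On the vesicle fusion list 4 of 36 genes were called lower and 1 higher, and the median was -0.085. Stx1a, a SNARE protein gene of the presynaptic membrane, had 26.3 FPKM with the knockout label and 43.8 with the wild-type label (-0.73 ± 0.23). Syt17 had 7.05 FPKM under the KO label and 11.7 under the WT label (-0.73 ± 0.23), and Syt2, a fast calcium sensor of release, had 5.11 FPKM under the KO label and 7.45 under the WT label (-0.54 ± 0.19). Vamp1, a vesicle SNARE gene, had 35.3 FPKM with the knockout label and 48.0 with the wild-type label (-0.44 ± 0.17). Syt10 was the gene called higher, at 11.7 FPKM under the KO label and 8.40 under the WT label (0.48 ± 0.21, q = 0.0261 in the authors' deposited table). The most abundant members were not called: Snap25 had 803 FPKM with the knockout label and 879 with the wild-type label (-0.13 ± 0.29). Among 38 potassium channel genes 2 were called lower and 0 higher, with a median of -0.092, and 10 were lower and 1 higher at an unadjusted deposited p under 0.05 in the authors' deposited table. Both called genes encode Kv3 channels, which let neurons fire fast: Kcnc1 had 26.3 FPKM with the knockout label and 34.6 with the wild-type label (-0.40 ± 0.20, q = 0.0366 in the authors' deposited table), and Kcnc2 had 7.65 FPKM under the KO label and 10.3 under the WT label (-0.42 ± 0.17, q = 0.0146 in the authors' deposited table). Kcnc4, a Kv3 gene not on the list and named after its value was seen, was called too at 12.4 FPKM with the knockout label and 16.8 with the wild-type label (-0.44 ± 0.18). Hapln4, a link protein gene of the perineuronal nets around fast-spiking cells, had 9.11 FPKM under the KO label and 13.2 under the WT label (-0.54 ± 0.18). Adcy1, a calcium-stimulated adenylyl cyclase gene, was the 1 called of 22 genes of adenylyl cyclase and protein kinase A, at 16 FPKM with the knockout label and 21.0 with the wild-type label (-0.39 ± 0.19, q = 0.0314 in the authors' deposited table). Adcy5, the main striatal cyclase gene, lay on the other side and was not called, at 139 FPKM under the KO label and 116 under the WT label (0.26 ± 0.23). It was picked out after its value was seen.

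Cbx8, which encodes a chromobox subunit of Polycomb repressive complex 1, had the third lowest ratio among called genes other than predicted genes and pseudogenes. It stood at 15.1 FPKM with the knockout label and 60.9 with the wild-type label (-2.01 ± 0.13). Of 22 Polycomb genes Cbx8 was the 1 called, and the median was -0.038. Across groups Cbx8 had 51.8 FPKM under the KO label and 84.7 under the WT label in naive mice, 99.7 FPKM under the KO label and 50.5 under the WT label with saline, and 15.1 FPKM under the KO label and 60.9 under the WT label with desipramine. The group labelled knockout was therefore the lowest of the 6 with desipramine and the highest of the 6 with saline. Other genes among the lowest 15 encode secreted antagonists and signals: Dkkl1 (1.04 FPKM with the knockout label and 2.96 with the wild-type label), the Wnt antagonist gene Frzb (1.49 FPKM under the KO label and 3.53 under the WT label, q = 0.0146 in the authors' deposited table) and Scube1 (1.30 FPKM under the KO label and 3.32 under the WT label). The clock relative Arntl2 (2.13 FPKM under the KO label and 5.33 under the WT label), the coronin gene Coro6 (5.11 FPKM under the KO label and 11.7 under the WT label) and the GTPase activator gene Arhgap22 (2.96 FPKM under the KO label and 7.62 under the WT label, q = 0.0466 in the authors' deposited table) completed it. On the higher side the remaining genes of the top 15 were Ldb3, Dmkn, Xlr3b, Ppp1r36 and Thbs4, with log2 ratios of 0.82 to 1.19, and Ppp1r36 had q = 0.0419 in the authors' deposited table. Thbs4, a thrombospondin gene, had 3.74 FPKM with the knockout label and 2.12 with the wild-type label (0.82 ± 0.33).

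**Figure D3:**
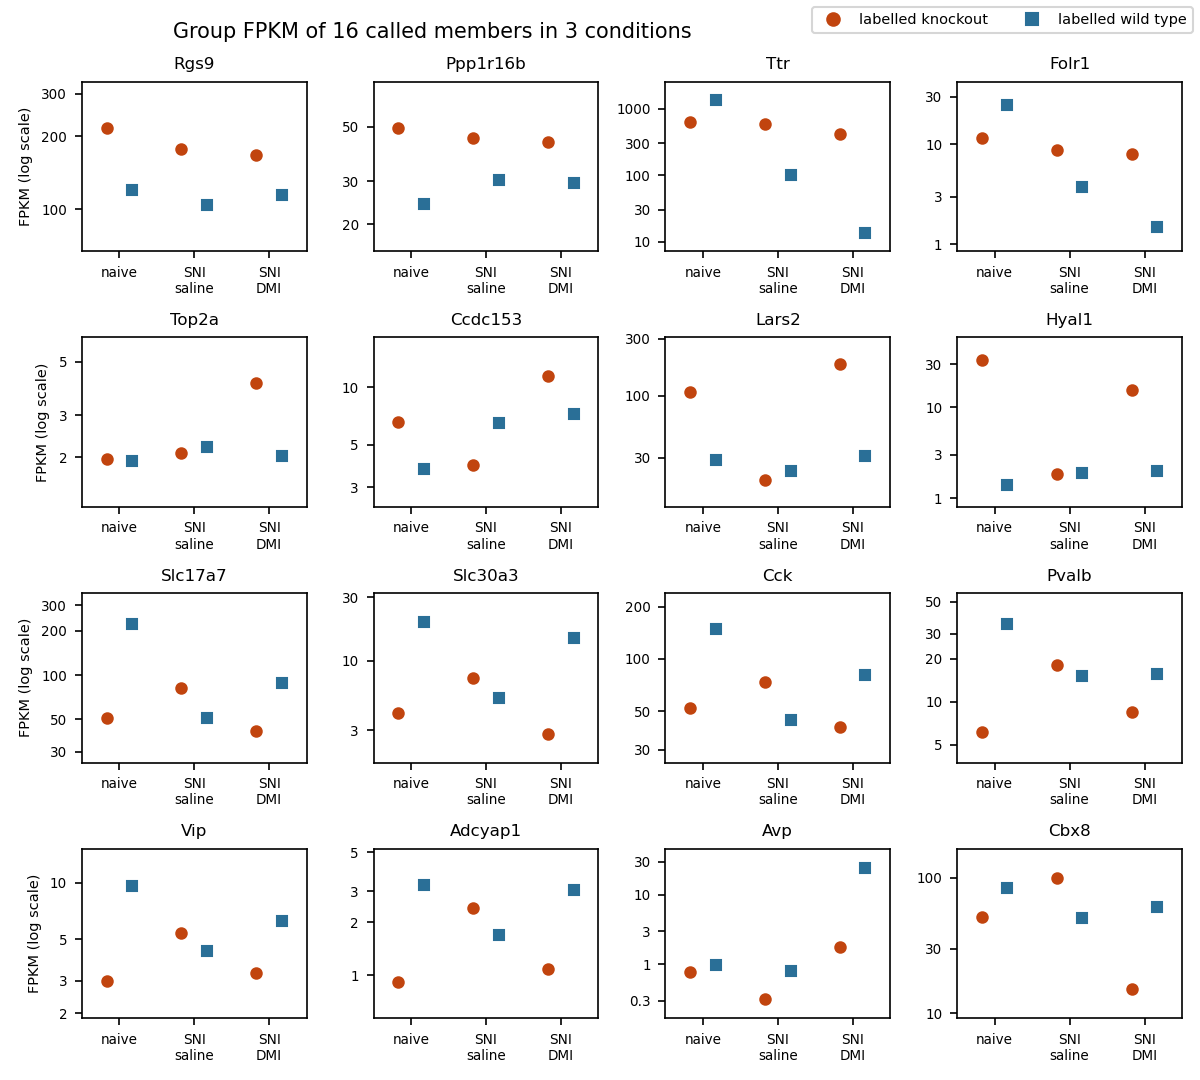
FPKM (log scale) of 16 called genes in the groups labelled knockout (orange circles) and wild type (blue squares) in naive mice, after nerve injury with saline (SNI saline) and after nerve injury with desipramine (SNI DMI), each point being the authors' 1 value per group. Rgs9 and Ppp1r16b are higher with the knockout label in all 3 conditions, Slc17a7 and Cck are lower with it in naive and desipramine-treated mice but not with saline, and Avp is highest with desipramine and the wild-type label.

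Genes of the medium spiny neurons mostly had small positive ratios. Of 22 listed genes 20 had a positive log2 ratio, the median was 0.18, and Rgs9 was the 1 called. Ppp1r1b, which encodes the dopamine-regulated phosphatase inhibitor DARPP-32, had 704 FPKM with the knockout label and 638 with the wild-type label (0.14 ± 0.29). Arpp21, a cAMP-regulated phosphoprotein gene, had 602 FPKM under the KO label and 499 under the WT label (0.27 ± 0.34), and the phosphodiesterase gene Pde1b had 275 FPKM under the KO label and 244 under the WT label (0.17 ± 0.23). At an unadjusted deposited p under 0.05, 7 of the 22 were higher and 0 lower in the authors' deposited table. The direct pathway list had a median of 0.17 and the indirect pathway list one of 0.14, each over 9 genes with 0 called. Tac1, the substance P gene of direct pathway neurons, had 301 FPKM with the knockout label and 259 with the wild-type label (0.22 ± 0.18), and Adora2a, the adenosine receptor gene of indirect pathway neurons, had 69.4 FPKM under the KO label and 67.3 under the WT label (0.045 ± 0.17). These genes define the tissue and were well expressed with both labels. Ppp1r16b, a phosphatase regulator gene named after its values were seen, was called higher at 43.2 FPKM with the knockout label and 29.5 with the wild-type label (0.55 ± 0.19).

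The signalling genes nearest to RGS9-2 and to desipramine were not called, Rgs9 apart. On the R7 RGS list, Gnb5, the Gβ5 partner of RGS9-2, had 108 FPKM with the knockout label and 102 with the wild-type label (0.083 ± 0.19). Rgs7bp, a membrane anchor, had 32.3 FPKM under the KO label and 33.0 under the WT label (-0.032 ± 0.16), and the relatives Rgs7 (-0.11 ± 0.25), Rgs6 (0.02 ± 0.26) and Rgs11 (-0.39 ± 0.33) were not called either. Of 13 other RGS genes 0 were called, the nearest being Rgs4 at 113 FPKM with the knockout label and 92.4 with the wild-type label (0.30 ± 0.18, q = 0.289 in the authors' deposited table). The 23 G protein subunit genes had a median of 0.082 and 0 called. Opioid peptide genes were not called. Penk, the enkephalin precursor, stood at 1286 FPKM with the knockout label and 1039.8 with the wild-type label (0.31 ± 0.22, q = 0.872 in the authors' deposited table). Pdyn, the dynorphin precursor, had 115 FPKM under the KO label and 94.3 under the WT label (0.28 ± 0.19, q = 0.394 in the authors' deposited table). The kappa receptor gene Oprk1 had a ratio of 0.019 ± 0.20, the delta receptor gene Oprd1 one of -0.13 ± 0.24, and the mu receptor gene Oprm1 one of -0.22 ± 1.76, the widest error of the list.

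Among dopamine genes 0 of 8 were called, with a median of 0.12. Drd1a had 52.2 FPKM with the knockout label and 44.4 with the wild-type label (0.23 ± 0.16), and Drd2 had 61.0 FPKM under the KO label and 53.1 under the WT label (0.20 ± 0.18). Slc18a2, the vesicular monoamine transporter, had 3.29 FPKM with the knockout label and 2.45 with the wild-type label (0.42 ± 0.25, q = 0.340 in the authors' deposited table). Among noradrenergic genes 0 of 8 were called, with a median of -0.033: the receptor genes Adra1b (-0.41 ± 0.32) and Adra2a (-0.19 ± 0.22) lay below 0 and Maob, a monoamine oxidase gene, above it (0.20 ± 0.20). Slc6a2, which encodes the noradrenaline transporter that desipramine blocks, did not reach the level threshold. Among serotonin genes 0 of 11 were called, with a median of -0.083. Htr2c, the most abundant receptor of that list, had 30.9 FPKM with the knockout label and 34.8 with the wild-type label (-0.17 ± 0.16). A gene not called is not thereby shown to be equal. The median standard error over all genes was 0.26, and no gene with a log2 ratio between -0.36 and 0.39 was called. Larger ratios could go uncalled too.

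**Figure D4:**
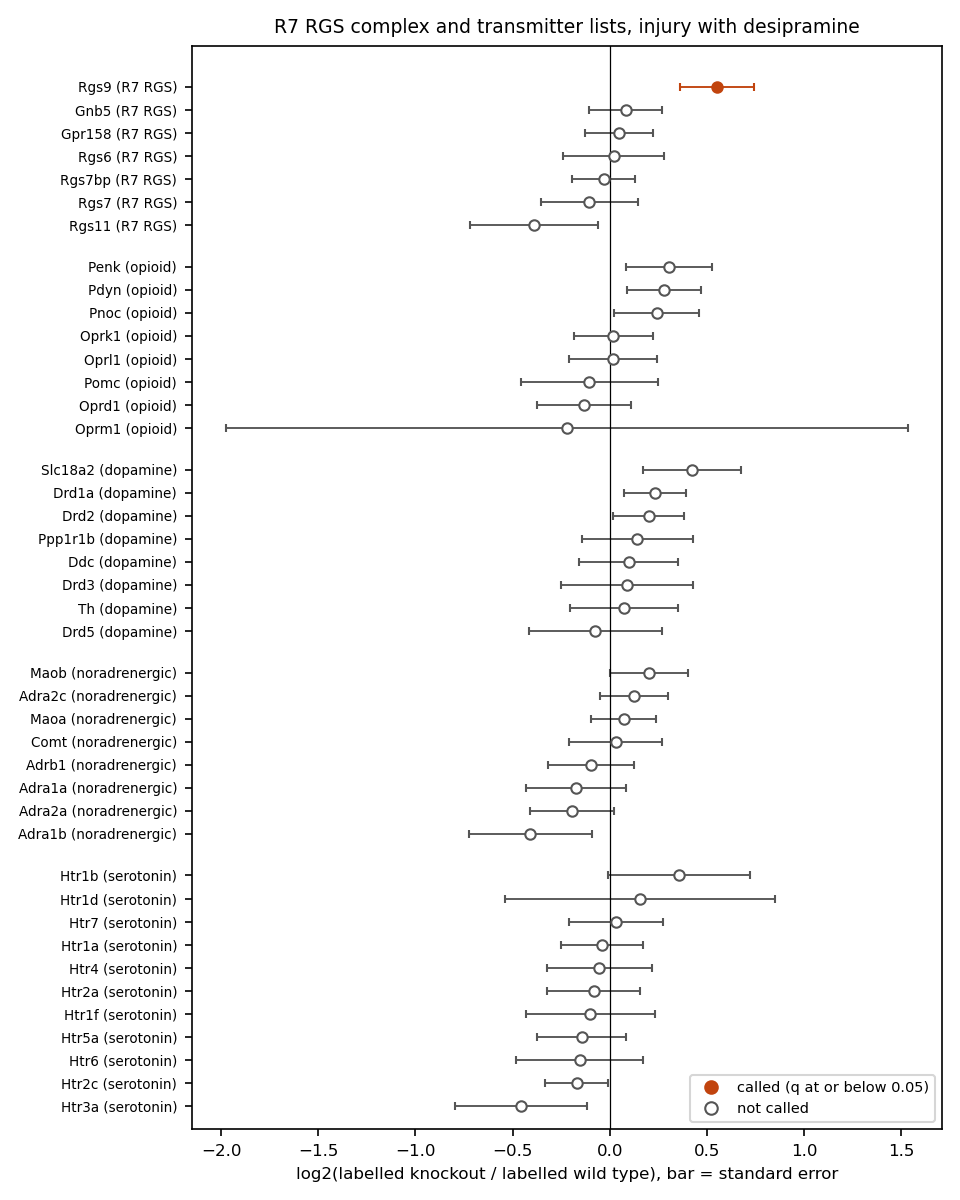
Log2 ratio of FPKM (labelled knockout over labelled wild type) with its standard error for the genes of the R7 RGS, opioid, dopamine, noradrenergic and serotonin lists that passed the level threshold after injury with desipramine. Rgs9, at 0.55, is the 1 called gene, and the bar of Oprm1 is the widest.

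The other lists held few or no calls. Immediate-early genes, which neurons switch on within minutes of activity, had a median of 0.10 over 33 genes with 0 called, while at an unadjusted deposited p under 0.05 there were 10 higher and 0 lower in the authors' deposited table. Egr1 had 40.7 FPKM with the knockout label and 35.9 with the wild-type label (0.18 ± 0.18). The heat shock and chaperone list had a median of 0.14 over 28 genes with 0 called, 24 of them positive. Of 20 astrocyte genes 1 was called, Agt, the angiotensinogen gene, lower at 18.2 FPKM with the knockout label and 25.5 with the wild-type label (-0.48 ± 0.19). On the retinoic acid list 2 of 16 were called higher, Ttr and Rbp4, the retinol carrier gene, at 15.6 FPKM under the KO label and 10.1 under the WT label (0.63 ± 0.28), while the median was 0.041. Lists with 0 calls and medians between -0.15 and 0.13 were those of microglia (19 genes), immune signals (13), oligodendrocyte precursors (11), endothelial cells (18), smooth muscle and pericytes (10), meninges and fibroblasts (15), red blood cells (5), cholinergic neurons (13), glutamate receptors (35), GABA-A receptor subunits (14), sodium, calcium and HCN channels (30), phosphodiesterases (18), neurotrophins (8), endocannabinoid genes (8), histone deacetylases (18), stress hormone response (18), the circadian clock (19), axon guidance (47), the respiratory chain (42) and ribosomal proteins (54). Of 18 zinc transporters Slc30a3 was the 1 called.

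The label contrast could be set beside the same contrast after saline and in naive mice, which use other samples. By the same rule 37 of 14063 genes (0.263%) were called after saline and 184 of 13852 (1.33%) in naive mice. In naive mice 38 of the 77 genes called lower with desipramine were also called lower, which is 49.4% of the 77 and 26.6% of the 143 (1.03%) called lower there. For genes called higher the overlap was 7, which is 21.2% of the 33 and 17.1% of the 41 (0.296%) called higher in naive mice. After saline it was 4 of the lower genes (5.19% of 77 and 22.2% of the 18 called lower there, 0.128%) and 6 of the higher ones (18.2% of 33 and 31.6% of the 19 called higher there, 0.135%), and another 2 were called lower with desipramine but higher with saline. The 77 genes had a median log2 ratio of -0.93 in naive mice, with 74 below 0, and of 0.096 after saline, with 27 below 0. Over all genes 47.9% had a positive ratio in naive mice and 51.7% after saline. The 33 genes had medians of 0.44 in naive mice, with 23 above 0, and 0.16 after saline, with 21 above 0. In the naive group labelled wild type the cortical genes were highest: the list summed to 131 FPKM under the KO label and 432 FPKM under the WT label in naive mice, and to 187 FPKM under the KO label and 131 FPKM under the WT label after saline. FPKM values were normalized separately in each table, so levels set across conditions are approximate.

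**Figure D5:**
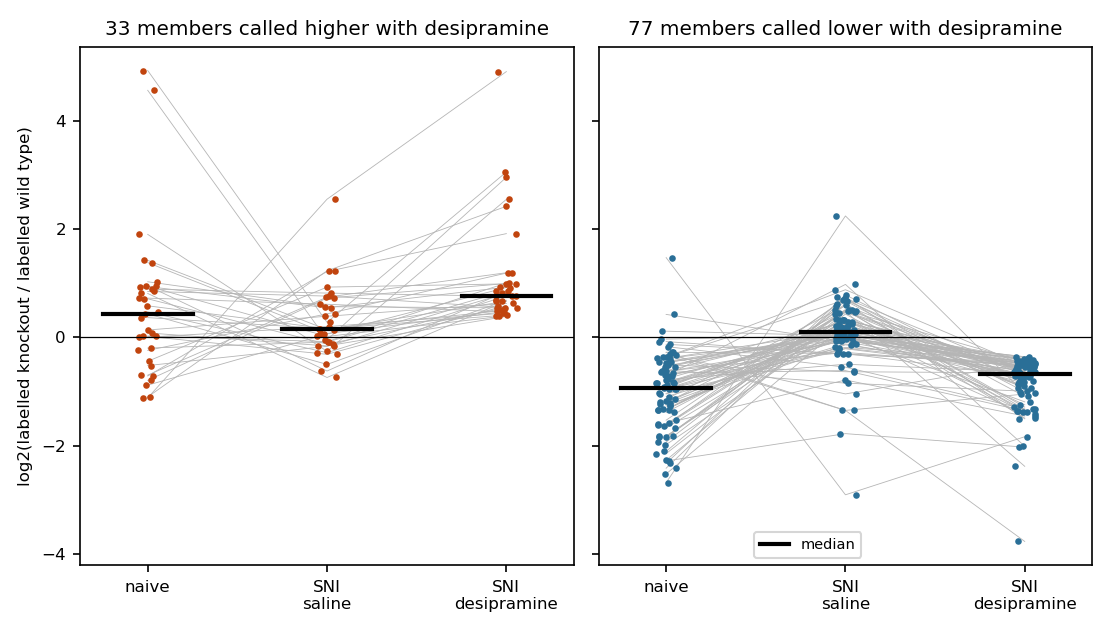
Log2 ratio of FPKM (labelled knockout over labelled wild type) in naive mice, after nerve injury (SNI) with saline and after nerve injury with desipramine, for the 33 genes called higher (left) and the 77 called lower (right) with desipramine. Each grey line is 1 gene and black bars are medians, which for the 77 genes lie at -0.93 in naive mice, 0.096 after saline and -0.68 with desipramine.

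The medians of several lists changed sign between conditions, the cortical, choroid plexus and ependymal lists among them. Those of the hypothalamic and septal list were 0.28 in naive mice, -0.66 after saline and 0.14 with desipramine. The 15 cortical excitatory neuron genes had medians of -1.83 in naive mice, 0.48 after saline and -0.34 with desipramine. Slc17a7 stood at 51.5 FPKM under the KO label and 222 under the WT label in naive mice, at 82.1 FPKM under the KO label and 51.2 under the WT label after saline, and at 41.5 FPKM under the KO label and 88.3 under the WT label with desipramine. Cck had the same sign as Slc17a7 in each condition, with 51.9 FPKM under the KO label and 149.7 under the WT label in naive mice, 73.2 FPKM under the KO label and 44.7 under the WT label after saline, and 40.5 FPKM under the KO label and 81.3 under the WT label with desipramine. Choroid plexus genes had medians of -0.45 in naive mice, 0.48 after saline and 0.99 with desipramine. Car12 went apart from that list, with log2 ratios of 0.73 in naive mice, 0.61 after saline and 0.47 with desipramine. The main choroid plexus gene Ttr had 628 FPKM under the KO label and 1362 under the WT label in naive mice, 587 FPKM under the KO label and 99.6 under the WT label after saline, and 411 FPKM under the KO label and 13.6 under the WT label with desipramine, so the spread of Ttr lay mainly among groups labelled wild type. Ependymal genes had medians of 0.50 in naive mice, -0.53 after saline and 0.45 with desipramine, and dividing cell genes had 0.019 in naive mice, -0.18 after saline and 0.33 with desipramine. Medium spiny neuron genes had positive medians throughout, at 0.60 in naive mice, 0.19 after saline and 0.18 with desipramine. By the deposited q, with no level threshold in naive and saline-treated mice, 4 genes were called in all 3 conditions and are named for that reason: Rgs9 and Ppp1r16b, always higher with the knockout label, the pseudogene Gm11942, always lower, and Myoc. Myoc, the myocilin gene, lay under 1 FPKM in some of the other groups and had log2 ratios of -2.69 in naive mice, 2.25 after saline and -1.03 with desipramine. Rgs9 had 217 FPKM under the KO label and 120.3 under the WT label in naive mice, and 177 FPKM under the KO label and 104 under the WT label after saline.

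The difference between contrasts was then tested gene by gene, as the difference of log2 ratios over its standard error, taken as normal and two-sided. The p was adjusted by Benjamini-Hochberg over genes with at least 1 FPKM in every group compared and a standard error for both ratios. Avp, under 1 FPKM with both labels in naive and saline-treated mice, was therefore not tested for a difference. A gene passed at an adjusted p of at most 0.05. No lane held more than 1 of the 6 groups, so these differences cannot be told apart from differences between lanes. Between desipramine and saline 18 of 13830 genes passed (0.13%), 6 more positive with desipramine (0.0434%) and 12 more negative (0.0868%). The 5 smallest p on the positive side were those of 7SK, Lars2, Irs4, Dynlrb2 and Il17rc, and the other gene there was the galanin gene Gal. On the negative side they were those of Cbx8, Slc30a3, Rpsa-ps10, Mir1188 and A830036E02Rik, and the others were Nrn1, Bhlhe22, Slc17a7, Rtn4r, Adcyap1, Ptprv and Ncrna00085. Of these 12, 4 belong to the cortical excitatory neuron list, Slc30a3, Nrn1, Bhlhe22 and Slc17a7. Cbx8 differed most by p, with a log2 ratio of -2.01 with desipramine and 0.98 after saline (difference -2.99 ± 0.14). The error recovered for its saline ratio was only 0.058, yet Cuffdiff put the q of that ratio at 0.507, above 0.05. So small an error would go with a far lower q, so the p of the Cbx8 difference and its first place are uncertain. Slc30a3 had -2.38 with desipramine and 0.48 after saline (difference -2.87 ± 0.46). Slc17a7 had a difference of -1.77 ± 0.43, which passed, and Cck one of -1.72 ± 0.44, which did not. Top2a had a difference of 1.08 ± 0.62, which did not pass either. Between desipramine and naive mice 8 of 13643 genes passed (0.0586%), 4 in each direction (0.0293%). Ttr was the largest of these, with 4.92 with desipramine and -1.12 in naive mice (difference 6.04 ± 1.17). The p of Alox5ap, U1 and Nkain2 among them is uncertain for the same reason as that of Cbx8.

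Set beside desipramine against saline within each label, which share the desipramine groups with the label contrast and so are not independent of it, the called genes gave the following values. Avp had a log2 ratio of desipramine over saline of 2.52 in mice labelled knockout and 4.95 in mice labelled wild type. Cck had -0.86 in mice labelled knockout and 0.86 in mice labelled wild type, and Slc17a7 had -0.996 in mice labelled knockout and 0.78 in mice labelled wild type. For Slc30a3 the values were -1.39 in mice labelled knockout and 1.49 in mice labelled wild type. Cbx8 had -2.73 in mice labelled knockout and 0.27 in mice labelled wild type. Top2a had 0.95 in mice labelled knockout and -0.12 in mice labelled wild type. Ttr had -0.53 in mice labelled knockout and -2.88 in mice labelled wild type. Neither ratio of Ttr was called (q = 0.713 in mice labelled wild type in the authors' deposited table). Those of Cbx8 and Top2a in mice labelled wild type were not called either, while the other ratios given here were. By the deposited q, desipramine against saline called 134 of 14068 genes (0.953%) in mice labelled knockout, 90 of them higher (0.64%) and 44 lower (0.313%) with desipramine. In mice labelled wild type it called 25 of 14080 (0.178%), 21 of them higher (0.149%) and 4 lower (0.0284%).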

How the data were processed

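RNA sequencing tables of nucleus accumbens were used, of which 5 of the series' 7 compare the groups named here and the other 2 were not used. The submitters' processing notes name TopHat2 2.0.9, Bowtie2 2.1.0 and Cuffdiff 2.1.1, and list both NCBIM37 and mm9 as builds. The options and annotation release were not given in those sources. The authors deposited 1 FPKM value per gene and group, normalized by Cuffdiff within each table over 3 samples, so no value per sample, no depth and no counting interval are available. The deposited log2 fold change matched the ratio of the FPKM columns within 0.01 except for 27 genes, of which 0 were called. The deposited test statistic, from Cuffdiff, was used as a score. Each deposited p-value comes with a q-value, which matched p adjusted by Benjamini-Hochberg over all tested genes. The lowest deposited p was 5e-05.

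From these, log2 ratios were computed from the FPKM columns with no pseudocount, and standard errors as log2 fold change over test statistic, which 62 genes lack. The deposited p does not follow from that statistic by a normal distribution, so a ratio over its standard error need not match its q. The method for differences between contrasts was tested on simulated data, drawn as normal with the recovered standard errors. That simulation could not show whether these standard errors hold, since it took them as given. Python 3.11.15, pandas 2.3.3, NumPy 2.4.6, SciPy 1.17.1 and matplotlib 3.10.9 were used.

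Gene lists numbered 47, and 2 more were added after the values were seen. The members and lists were chosen with earlier results of these data known. Named were Rgs9, the 15 highest and 15 lowest called genes without small RNAs, pseudogenes or predicted genes, per list up to 6 called genes and up to 3 abundant uncalled ones, any gene of the 5 receptor lists, and the 5 smallest p on each side per difference. Not all genes so chosen are named, and exceptions are stated beside them. Genes were matched by symbol, and listed symbols with no match were not analysed here. Promoter windows came from RefSeq on GRCm38.p6, and its coordinates were not mixed with those of the files' mm9 build. Reads shared by near-identical copies or overlapping genes, such as the pseudogene Gm11942, may be split in ways that the files do not show. Some genes are not reported here.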

Additional observations from a re-analysis of the deposited data

Results flagged for a closer look

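The label contrast differed between desipramine and another condition for the genes below, each at an adjusted p of at most 0.05 for the difference of log2 ratios, given below with its standard error. They are the 5 smallest p on each side where there were as many. No cause was tested for any of them.

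Against saline, 6 genes were more positive with desipramine, of which 5 are given. 7SK (ENSMUSG00000065037) differed by 2.78 ± 0.32 (3.06 with desipramine and 0.28 with saline) and Lars2 by 2.81 ± 0.44 (2.56 with desipramine and -0.26 with saline). Irs4, an insulin receptor substrate gene, differed by 1.87 ± 0.40 (0.25 with desipramine and -1.61 with saline). Dynlrb2, a dynein light chain gene of cilia, differed by 1.73 ± 0.39 (0.81 with desipramine and -0.92 with saline). Il17rc, an interleukin receptor gene, differed by 1.73 ± 0.43 (1.11 with desipramine and -0.62 with saline). Dynlrb2 and Il17rc were called in neither of these contrasts.

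On the negative side, with 5 of 12 given, Cbx8 differed by -2.99 ± 0.14 (-2.01 with desipramine and 0.98 with saline), with a standard error well under that of the others in its direction. That error includes 0.058 for the saline ratio of Cbx8, to which Cuffdiff gave a q of 0.507, so its p is uncertain. Slc30a3 differed by -2.87 ± 0.46 (-2.38 with desipramine and 0.48 with saline). The pseudogene Rpsa-ps10 differed by -1.52 ± 0.30 (-0.11 with desipramine and 1.40 with saline). The microRNA gene Mir1188 differed by -1.18 ± 0.27 (-0.35 with desipramine and 0.83 with saline) and was called in neither contrast. A830036E02Rik differed by -1.87 ± 0.42 (-0.66 with desipramine and 1.21 with saline).

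Against naive mice, Ttr differed by 6.04 ± 1.17 (4.92 with desipramine and -1.12 in naive mice) and 1500015O10Rik by 2.63 ± 0.56 (1.92 with desipramine and -0.71 in naive mice). Igkc, an immunoglobulin gene, differed by 1.95 ± 0.38 (0.14 with desipramine and -1.81 in naive mice), and 2010107E04Rik by 1.0 ± 0.20 (0.029 with desipramine and -0.97 in naive mice). Alox5ap, a leukotriene synthesis gene, differed by -1.63 ± 0.14 (-0.58 with desipramine and 1.04 in naive mice). Nkain2 (ENSMUSG00000069671) differed by -0.62 ± 0.10 (0.13 with desipramine and 0.75 in naive mice). The small nuclear RNA genes U1 (ENSMUSG00000075736) and 7SK had positive ratios in both conditions. U1 differed by -0.64 ± 0.080 (5.35 with desipramine and 5.99 in naive mice) and 7SK by -1.88 ± 0.33 (3.06 with desipramine and 4.94 in naive mice). U1 was called in neither condition (q = 0.163 with desipramine and 0.0798 in naive mice in the authors' deposited table). Igkc, Alox5ap and Nkain2 were also called in neither. The recovered errors of the desipramine ratios were only 0.067 for Alox5ap, 0.051 for U1 and 0.052 for Nkain2. Their Cuffdiff p was 0.0166, 0.0026 and 0.571 in that order in the authors' deposited table. Errors so small would go with a lower p, so the p of these differences is uncertain, as for Cbx8. Other gene entries named U1, 7SK or Nkain2 were listed, and none of them was called with desipramine.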

How the results depend on the processing

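The 33 genes called higher became 21 at q of 0.01 or less, 129 at a deposited p of 0.01 or less, 16 with an FPKM of at least 5 in both groups and 54 with no level filter. The 77 called lower became 204 at a deposited p of 0.01 or less, 49 with an FPKM of at least 5, 49 where a size of at least 0.5 was also asked with a pseudocount of 1, and 45 where p was taken from the test statistic as normal. That p kept 8 of the 33 and 22 of the 77, and 32 of 55 named called genes were lost with it; the cause was not tested. Adjusting over the 14093 genes alone gave 31 and 75, and adjusting over the 3 tables of the label contrast gave 33 and 77. Of the 55, 11 were lost at q of 0.01 or less and 2 when adjusted over the 14093 genes alone. The 18 genes that differed from saline became 7 with an FPKM of at least 5. The 8 that differed from naive mice became 5 with that filter and 18 with none. List medians moved by more than the median standard error of the list's genes only for opioid genes (0.24) and choroid plexus genes (0.47), both with an FPKM of at least 5. Centring on the median, other level filters and a pseudocount of 1 turned no list median of at least 0.1 round.

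No paired analysis was possible because the tables hold 1 value per group, and leaving out a replicate was not run for the same reason. Depth per sample is unknown, so precision is known only through the recovered standard errors.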

Other observations

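Outside the level threshold, 39 more tested genes were called with desipramine, 21 higher and 18 lower with the knockout label, and those below were chosen after their values were seen. Several choroid plexus genes stood among those higher. Kcne2, a potassium channel subunit gene, had 1.51 FPKM with the knockout label and 0.161 FPKM with the wild-type label (log2 ratio 3.23). F5, a coagulation factor gene, had 1.03 FPKM with the knockout label and 0.146 with the wild-type label (2.81). Cldn2 had 0.719 FPKM with the knockout label and 0.106 with the wild-type label (2.77), and Aqp1 had 0.887 FPKM with the knockout label and 0.183 with the wild-type label (2.28). Ccnb1, a mitotic cyclin gene, had 1.48 FPKM with the knockout label and 0.679 with the wild-type label (1.12, q = 0.0419 in the authors' deposited table).

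Among those lower, Emx1, a transcription factor gene of cortical excitatory neurons, had 0.888 FPKM with the knockout label and 1.90 with the wild-type label (-1.10, q = 0.0146 in the authors' deposited table). Cyp26b1, which degrades retinoic acid, had 0.921 FPKM with the knockout label and 2.1 with the wild-type label (-1.19). Col19a1, a collagen gene, had 0.769 FPKM with the knockout label and 1.76 with the wild-type label (-1.19). Igfn1 had 0.186 FPKM with the knockout label and 2.26 with the wild-type label (-3.60).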
